A study of Mus musculus with 9 samples.

Results

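The comparison set interferon-producing killer dendritic cells (IKDC) sorted from lymph node against IKDC sorted from spleen. Of the 9 arrays in the series, 3 held IKDC, namely 1 from lymph node and 2 from spleen. The other 6 arrays held conventional dendritic cells (CDC) and natural killer (NK) cells, each with 1 lymph node array and 2 spleen arrays. The donors in every group were BALB/c mice, naive and 6 to 8 weeks old, and the labels name no treatment and no engineered allele. The gate that defined IKDC, the lymph nodes used and the number of mice behind an array are not given in the sources used here. Genes were chosen by a rule of size. A gene was counted as higher or lower when its lymph node IKDC level lay outside both spleen IKDC arrays by at least 1 log2, that is at least 2-fold from the nearer spleen array. Those whose CDC and NK arrays did not shift alike were set apart.

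IKDC were described in mouse spleen as cells that carry CD11c and NK receptors, kill targets and make interferon gamma, and their standing as dendritic cells or as activated NK cells has been debated. Plasmacytoid dendritic cells (pDC), a separate lineage that releases type I interferon on sensing viral nucleic acid, share low CD11c and the B220 antigen with the cells first called IKDC. NK cells mature through an early stage with CD27 and the interleukin 7 receptor to a late stage with KLRG1, and lymph nodes are known to hold more of the early stage than spleen.

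Levels are log2 normalized intensities, and differences between organs are in log2 units. Of 18193 genes with a probe set of their own, 10916 passed a filter at a mean level of 5.31 and were tested. That mean includes the lymph node IKDC array, so a gene can pass through its level there alone. Counts of higher genes in a list are descriptions for that reason. Levels under 5.31 are near background, and a fold against such a level is given as at least that against 5.31. The lymph node array cannot show its own spread, so the error of each difference is the standard error (SE) from limma, which takes the spread from the 3 pairs of spleen arrays. In sorted bulk RNA, a change in the number of cells of a type and a change in RNA per cell cannot be told apart.

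Lymph node and spleen IKDC both had RNA of an NK receptor and of CD11c. Ncr1, which encodes the NK receptor NKp46, read 11.55 in lymph node IKDC and 10.97 and 11.55 in spleen IKDC. Itgax, which encodes CD11c, read 10.88 in lymph node IKDC and 11.03 and 11.24 in spleen IKDC. In IKDC neither gene lay outside the spleen arrays by as much as the rule asks. Ncr1 was as high in NK, at 11.79 in lymph node and 11.63 and 12.17 in spleen. Itgax read 8.19 in lymph node NK and 11.32 and 7.27 in spleen NK, so these levels do not test the identity of the sorted IKDC. Across tested genes, lymph node IKDC correlated at 0.907 and 0.881 with spleen IKDC arrays 1 and 2 and at 0.916 with lymph node NK, while its correlation with the CDC arrays was between 0.755 and 0.793. The spleen IKDC pair itself correlated at 0.865 and differed by at least 1 log2 in 2148 genes, 19.7% of those tested. These correlations are across genes of few arrays and carry no test. The median deposited intensity was 40.6 in lymph node IKDC and 34.1 and 23.4 in spleen IKDC. The actin probe sets gave a 3' to 5' ratio of 1.89 in lymph node IKDC and of 3.23 and 1.24 in spleen IKDC. Spleen array 1 stood apart in the sex-linked genes of every cell type. Xist, which silences an X chromosome in female cells, read 12.13 in lymph node IKDC and 6.07 and 11.43 in spleen IKDC, and the Y-linked Eif2s3y read 4.01 in lymph node IKDC and 8.84 and 4.02 in spleen IKDC. CDC and NK showed the same split, and the medians of several lists below are also given against each spleen array. The part of sex, signal ratio and intensity in the results was not tested.

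By the rule, 291 genes were higher in lymph node IKDC, 2.67% of those tested, and 212 were lower, 1.94%. For comparison, 459 genes were higher and 537 lower in lymph node CDC than in spleen CDC, 4.2% and 4.92%, and 233 were higher and 238 lower in lymph node NK than in spleen NK, 2.13% and 2.18%. Each list count below is to be read beside the share for the same cell type and direction. With the values as deposited, without quantile normalization, the IKDC counts were 361 higher and 149 lower. Before the filter, 443 genes were higher and 391 lower, of which 152 and 179 did not pass it. The lymph node level lay above both spleen arrays by any amount in 30.4% of tested genes and below both in 30.1%. Just inside the rule were Lpar6 at a distance of 1.0002 from the nearer spleen array and Katnal1 at -1.0003, and just outside it were Marchf1 at 0.9925 and Top2a at -0.9995.

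Of the 291 higher genes, 59 did not shift alike (0.54% of tested genes). In these, neither the CDC nor the NK lymph node array lay above both of its spleen arrays, and the IKDC difference exceeded each of theirs by at least 1 log2. A further 21 were higher by the rule in all 3 cell types (0.192%), 45 in IKDC and CDC (0.412%) and 31 in IKDC and NK (0.284%), and the other 135 lay between these cases (1.24%). Of the 212 lower genes, 29 did not shift alike (0.266%), 31 were lower in all 3 cell types (0.284%), 27 in IKDC and CDC (0.247%), 32 in IKDC and NK (0.293%) and 93 lay between (0.852%). The 3 contrasts use separate arrays.

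The limma test called 0 genes between lymph node and spleen IKDC at an adjusted p under 0.05, with 744 genes (6.82%) at an unadjusted p under 0.05. The smallest adjusted p, 0.0585, was shared by a group of genes that included Tbc1d8 and Nr4a1. The same test called 3 genes between lymph node and spleen CDC (0.0275%) and 0 in NK, with 1386 (12.7%) and 628 (5.75%) at an unadjusted p under 0.05. In IKDC it called 46 genes, 38 higher and 8 lower, with an offset of 32 intensity units, 22 with a filter at the 60th percentile, 18 with the mean of all probe sets and 14 without spleen IKDC array 2. With the number of the spleen array as a replicate block it called 126 or 64, depending on where the lymph node arrays, which carry no number, were placed. The first 3 of these settings shared 11 called genes, namely Plac8, Pltp, Pld4, Rnase6 and Spns3 on the higher side and Nr4a1, Ccl4, Dusp1, Bhlhe40, Ccrl2 and Atf3 on the lower side. The difference between the IKDC and the NK organ differences gave 0 called genes and 302 at an unadjusted p under 0.05 (2.77%), and that between the IKDC and CDC organ differences gave 0 and 615 (5.63%). No gene below is therefore shown to differ between cell types by the test, and the descriptions rest on the levels.

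**Figure D1:**
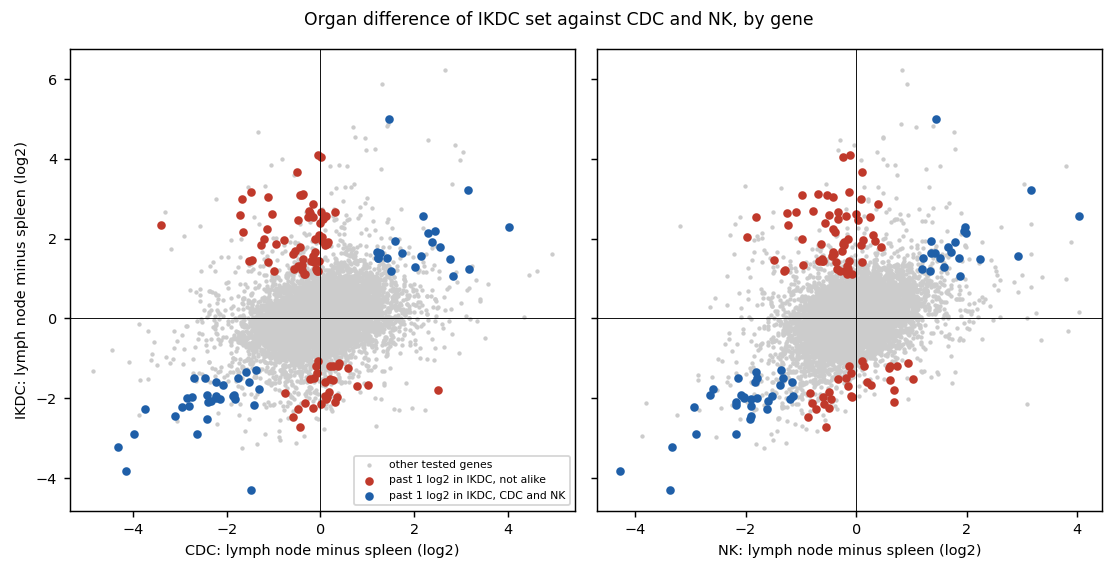
Lymph node minus mean spleen level (log2) of each tested gene in IKDC (vertical axes) against the same in CDC (left) and NK (right). Red points are the 59 higher and 29 lower IKDC genes that did not shift alike, blue points the 21 higher and 31 lower by the rule in all 3 cell types, and grey points the other tested genes. Some red points lie well across the vertical zero line, on the side opposite to their IKDC direction, such as Gm5547 at -1.67 and Ccl9 at 2.51 in CDC. In both panels the higher blue points lie at the upper right and the lower ones at the lower left.

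Genes of plasmacytoid dendritic cells stood higher in lymph node IKDC. Of 24 genes written as pDC genes, 21 had a probe set and 19 were tested, and by the rule 13 were higher and 0 lower, against 2.67% and 1.94% of all tested genes. Of the 13, only 1 was in the class that did not shift alike. In CDC the counts were 4 higher and 2 lower, and in NK 0 higher and 3 lower. The list's median organ difference came to 2.95 for IKDC, 0.48 for CDC and -0.16 for NK, beside 0.01, -0.02 and -0.05 over all tested genes. The median was 3.15 against spleen IKDC array 1 and 2.93 against array 2. Summed normalized intensity over the 19 genes was 32505 in lymph node IKDC and 10148 and 12461 in spleen IKDC. It was 13730 in lymph node CDC against 11005 and 9650 in spleen CDC, and 6840 in lymph node NK against 10440 and 12619 in spleen NK. The part that pDC among the sorted cells had in these levels was not tested.

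Siglech, a sialic acid-binding surface lectin used to identify mouse pDC, read 10.78 in lymph node IKDC and 5.45 and 6.51 in spleen IKDC. All 6 CDC and NK arrays lay between 4.79 and 6.44, so lymph node IKDC stood alone above the other 8 arrays by 4.27. Its organ difference in IKDC was 4.80 ± 0.54 (SE), a 27.9-fold difference, with an adjusted p of 0.0585 in limma. Cox6a2, a cytochrome c oxidase subunit best known from muscle, read 11.43 in lymph node IKDC and 7.20 and 7.20 in spleen IKDC, 18.8-fold higher, and also stood above the other 8 arrays, by 4.20. Klra17, which encodes the inhibitory receptor Ly49Q known from pDC rather than from most NK cells, read 9.83 in lymph node IKDC and 5.58 and 5.89 in spleen IKDC. The 6 CDC and NK arrays read 4.56 to 6.07 for Klra17, and it had the largest distance among the genes that did not shift alike.

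Other pDC genes were not confined to lymph node IKDC among the 9 arrays. Ccr9, the chemokine receptor that guides cells to thymus and gut, read 11.78 in lymph node IKDC and 4.48 and 6.64 in spleen IKDC. In CDC it read 10.37 in lymph node and 8.46 and 6.99 in spleen, so both cell types were higher by the rule. Spib, an Ets family transcription factor of pDC and B cells, read 10.63 in lymph node IKDC and 4.97 and 6.52 in spleen IKDC, and in CDC it read 9.36 in lymph node and 8.09 and 7.73 in spleen. In NK both genes were at 6.05 or below on every array.

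Regulators and effectors of the pDC program differed in size. Tcf4, which encodes the basic helix-loop-helix factor that specifies pDC, read 11.53 in lymph node IKDC and 10.02 and 8.81 in spleen IKDC, and its 5 probe sets at or above the filter level all passed the rule. Bst2, the surface protein tetherin that pDC-depleting antibodies recognise, read 9.42 in lymph node IKDC and 6.27 and 6.67 in spleen IKDC. Tlr7, a receptor for single-stranded RNA, read 7.85 in lymph node IKDC and 4.93 and 5.42 in spleen IKDC, at least 5.83-fold higher, while in CDC it was at 4.15 in lymph node and 6.96 and 7.99 in spleen. Members that did not reach the rule included Irf7, the factor behind type I interferon induction, at 9.58 in lymph node IKDC and 9.02 and 9.02 in spleen IKDC, and Irf8, at 12.44 and at 11.57 and 11.92. Tlr9 and Ly6d did not pass the filter, and Ly6d, a surface protein of lymphoid progenitors and pDC, read 6.59 in lymph node IKDC and 3.36 and 3.14 in spleen IKDC.

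**Figure D2:**
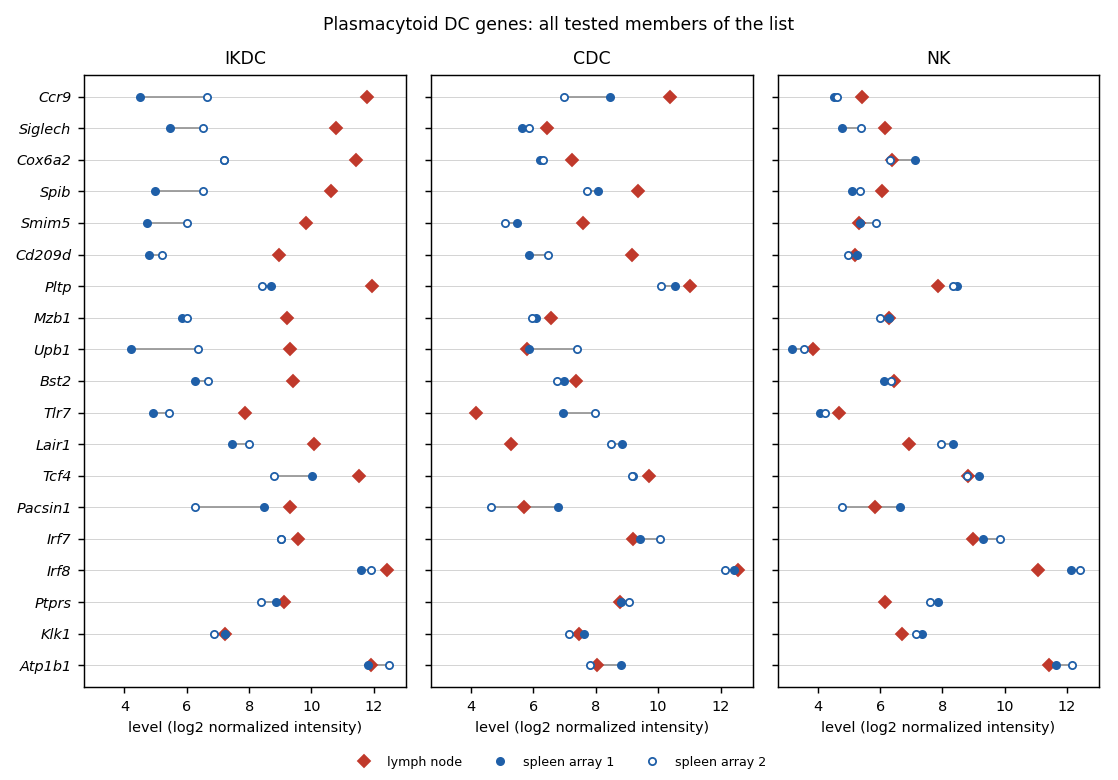
Levels (log2 normalized intensity) of the 19 tested pDC genes in IKDC, CDC and NK, with lymph node as red diamonds and the spleen arrays as blue circles joined by a line. In IKDC the diamond lies right of both circles for 17 genes and by at least 1 log2 for 13, while in CDC 4 genes and in NK 0 genes do so by that much.

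The promoters of Siglech and Ccr9 are shown because these genes led the pDC group, and pDC regulation by TCF4 runs through the E-box. The capitals mark each CANNTG match on either strand in the 250 bases before the start site, from RefSeq on GRCm38.p6. Siglech lies at chr7:55767934-55768183 on the plus strand and Ccr9 at chr9:123766961-123767210 on the plus strand.
Siglech: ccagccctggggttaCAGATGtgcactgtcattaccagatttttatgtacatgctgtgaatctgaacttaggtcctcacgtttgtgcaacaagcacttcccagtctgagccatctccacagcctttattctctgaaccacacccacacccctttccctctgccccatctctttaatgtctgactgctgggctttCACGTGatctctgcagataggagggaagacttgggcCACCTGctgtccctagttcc
Ccr9: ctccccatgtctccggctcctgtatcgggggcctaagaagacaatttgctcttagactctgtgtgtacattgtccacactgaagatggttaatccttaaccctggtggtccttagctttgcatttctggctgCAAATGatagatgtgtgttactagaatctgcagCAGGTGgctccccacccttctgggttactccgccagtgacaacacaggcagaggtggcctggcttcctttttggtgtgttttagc
Of the 14 tested pDC genes with a promoter entry, 10 held CANNTG at the first start site listed (71.4%). The share was 57.1% of the 8913 tested genes with an entry, counted alike, and 66.2% of all 32851 entries, where each start site counts. The motif is short and common, and a match describes letters only.

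In 37 of the 59 higher genes that did not shift alike (62.7%), the spleen CDC mean was at least 1 log2 above the spleen IKDC mean, beside 126 of all 291 higher genes (43.3%) and 9.7% of all tested genes. A gene low in spleen IKDC passes the filter only where another array is high, so these shares are a description. In 16 of the 59 lymph node IKDC was the highest of the 9 arrays by at least 1 log2. The genes below had the largest distances.

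Pld4, an exonuclease of endolysosomes that trims nucleic acids, read 11.01 in lymph node IKDC and 6.69 and 7.23 in spleen IKDC, 16.6-fold higher (4.05 ± 0.44 SE). Its CDC levels were high in both organs, at 11.55 in lymph node and 11.47 and 11.61 in spleen, and its NK levels low, at 5.95 in lymph node and 6.60 and 5.79 in spleen. Cyb561a3, a lysosomal cytochrome, and Ctsl, the protease cathepsin L, were also in this set. Ctsl read 11.51 in lymph node IKDC and 7.60 and 9.17 in spleen IKDC, and unlike Pld4 it was at 7.83 or below in the CDC arrays and at 9.21 or below in the NK arrays.

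Ly86, which encodes the MD-1 partner of CD180, read 11.18 in lymph node IKDC and 8.47 and 7.70 in spleen IKDC. Cd180 itself, a Toll-like receptor homologue, read 8.17 in lymph node IKDC and 5.49 and 5.50 in spleen IKDC. Both were at least 7.45 in all CDC arrays and at most 6.66 in all NK arrays. Alox5ap, the activating protein of leukotriene synthesis, read 11.10 in lymph node IKDC and 8.16 and 8.31 in spleen IKDC, and Cybb, the catalytic chain of the phagocyte oxidase, read 10.45 and 5.66 and 7.91. Alox5ap was also present in NK, at 8.78 in lymph node and 7.46 and 9.30 in spleen. The spleen IKDC arrays of Cybb differed from each other by more than 1 log2.

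Plac8, a small cysteine-rich protein of several leukocytes, read 12.62 in lymph node IKDC and 9.73 and 9.44 in spleen IKDC, and shifted the other way in CDC, at 11.43 in lymph node and 12.53 and 12.58 in spleen. Its organ difference in IKDC exceeded that in NK by 3.46 ± 0.41 and that in CDC by 4.16 ± 0.41 (SE), with limma adjusted p-values of 0.454 and 0.174. No gene had a smaller adjusted p in either test. Lair1, an inhibitory collagen receptor of the pDC list, shared the value of 0.174 against CDC, and read 10.07 in lymph node IKDC and 7.44 and 7.99 in spleen IKDC, while in CDC it was at 5.27 in lymph node and 8.85 and 8.49 in spleen. Spns3, a member of the Spinster transporter family, read 8.86 in lymph node IKDC and 6.23 and 6.24 in spleen IKDC, and also lay lower in lymph node CDC. Slco4a1, an organic anion transporter, read 9.88 in lymph node IKDC and 7.20 and 6.38 in spleen IKDC, and was at 6.50 or below in CDC and NK. Srpk3, Gm5547, Rell1 and Spint1 completed the 15 genes with the largest distances, between 2.44 and 2.94.

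Some genes outside the rule for names are given because they had the smallest p-values, and they were chosen after their values were seen. Tbc1d8, a GTPase-activating protein for Rab proteins by its domain, read 9.83 in lymph node IKDC and 5.98 and 6.01 in spleen IKDC, 14.3-fold higher (3.84 ± 0.33 SE, limma adjusted p = 0.0585). Its CDC levels were 10.97 in lymph node and 10.38 and 10.77 in spleen. Pltp, a phospholipid transfer protein and member of the pDC list, read 11.93 in lymph node IKDC and 8.71 and 8.40 in spleen IKDC.

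Genes of conventional dendritic cells were mixed. Of 21 tested members, 6 were higher and 1 lower in lymph node IKDC, with a median organ difference of 0.18, which was 0.03 against spleen array 1 and 0.30 against array 2. The higher members were Clec10a, Flt3, Itgae, Cd209a, Cadm1 and Dpp4. Flt3, the receptor for the growth factor that dendritic cells and pDC need, read 8.69 in lymph node IKDC and 6.13 and 5.75 in spleen IKDC, 6.74-fold higher. It read 10.84 in lymph node CDC and 10.90 and 11.25 in spleen CDC. Clec10a, a galactose-binding lectin, read 8.88 in lymph node IKDC and 3.83 and 5.24 in spleen IKDC, at least 11.9-fold higher, and was also higher in lymph node CDC. It passed the filter only through its lymph node IKDC level, as its mean over the other arrays was under 5.31. Another 14 members did not pass the rule. Among these Zbtb46, a zinc finger factor that marks this lineage, read 5.92 in lymph node IKDC and 5.42 and 6.20 in spleen IKDC, against 8.63 to 8.86 in all CDC arrays. Cd86, a costimulatory ligand, read 5.92 in lymph node IKDC and 6.20 and 6.70 in spleen IKDC, against 10.36 to 11.07 in the CDC arrays. Naaa, a lysosomal amidase, was the member that was lower, at 6.40 in lymph node IKDC and 7.85 and 8.13 in spleen IKDC, but of its 3 probe sets at the filter level only this 1 passed the rule.

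Class II presentation genes showed 4 of 17 higher and 0 lower, with a median organ difference of 0.44, beside -0.30 for CDC and -0.03 for NK. With arrays shifted to the same 75th percentile, 2 were higher. Of the 4, Ctsl, Cd74 and H2-Ab1 did not shift alike. In NK the lymph node level of each lay between the spleen levels, so their class depends on the spread of that spleen pair. Cd74, the invariant chain, read 11.73 in lymph node IKDC and 10.49 and 8.79 in spleen IKDC. H2-Ab1, a class II chain, read 10.79 in lymph node IKDC and 9.63 and 8.81 in spleen IKDC, and its 3 probe sets all passed the rule. Ifi30, a thiol reductase of antigen processing, read 10.93 in lymph node IKDC and 8.52 and 7.84 in spleen IKDC. H2-Aa read 11.90 in lymph node IKDC, between the spleen values of 12.01 and 10.91, on the probe set with the highest mean. Its other 3 probe sets all lay higher by the rule, with distances of 1.28, 1.78 and 1.79. Ciita, the transactivator that class II expression needs, read 5.74 in lymph node IKDC between 4.87 and 5.82. Probe sets of the class II family can cross-hybridise, so their single values are uncertain.

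B cell genes showed 5 of 12 tested members higher and 0 lower (7 and 4 higher under the other scalings), and the higher ones were Fcrla, Spib, Blnk, Cd79b and Ighm. Fcrla, an Fc receptor-like protein of B cells, read 9.93 in lymph node IKDC and 4.26 and 5.60 in spleen IKDC, at least 24.6-fold higher, and was higher by the rule in all 3 cell types. Blnk, an adaptor of the B cell receptor, read 9.62 in lymph node IKDC and 4.87 and 6.03 in spleen IKDC, and was higher in lymph node CDC too. Fcrla and Blnk passed the filter only through their lymph node IKDC level, as their mean over the other arrays was under 5.31. The count of 5 higher members is therefore a description. Among genes of the B cell receptor, Cd79b read 6.99 in lymph node IKDC and 4.88 and 5.32 in spleen IKDC, while its partner Cd79a read 5.25 in lymph node IKDC and 4.75 and 4.44 in spleen IKDC, under the filter level. Pax5, the B cell transcription factor, read 5.13 in lymph node IKDC and 4.03 and 5.01 in spleen IKDC. Ms4a1, which encodes CD20, read 6.30 in lymph node IKDC and 5.39 and 5.05 in spleen IKDC, above both by 0.91. Of the 8 members that did not pass the filter, Iglv1, Fcmr and Cr2 lay more than 1 log2 above both spleen arrays. The list summed to 7266 in lymph node IKDC and 3588 and 2780 in spleen IKDC. Spib is in the pDC list as well, and the part of B cells in these levels was not tested.

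T cell genes showed 2 of 14 higher, Cd4 and Il7r, and 0 lower, with a median organ difference of -0.02 in IKDC, which was 0.23 with the values as deposited, and of 1.53 in NK. Against spleen IKDC arrays 1 and 2 taken singly the median was 0.32 and 0.15. Cd4, a coreceptor that some dendritic cells and pDC also carry, read 9.30 in lymph node IKDC and 4.18 and 5.09 in spleen IKDC, at least 15.9-fold higher. Cd3e read 4.19 in lymph node IKDC, under the filter level, and 8.15 in lymph node NK. The T cell list summed to 7840 in lymph node IKDC and 5327 and 5312 in spleen IKDC. Macrophage and monocyte genes showed 1 higher and 1 lower of 14, granulocyte, erythroid and lymph node stroma genes 0 of 4, 0 of 4 and 0 of 6, and basophil genes 1 lower of 3. Plasma cell genes showed 2 of 8 higher, Mzb1 and Xbp1, of which Mzb1 is in the pDC list, and migratory dendritic cell genes 2 of 14 higher, Fscn1 and Cd200. The 6 tested stroma genes summed to 351 in lymph node IKDC and 270 and 386 in spleen IKDC. These counts and sums cover tested members only, while 16 stroma genes and 18 T cell genes had a probe set. Glycam1 of the stroma list and Cd8b1 of the T cell list did not pass the filter. Both read far higher in lymph node IKDC than in spleen IKDC, with levels given under the other observations.

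Most NK receptor genes lay within 1 log2 of spleen IKDC, while some effector genes were lower. Of 22 NK receptor genes, 2 were higher and 1 lower, with a median organ difference of 0.29. The higher members were Klra17, described with the pDC genes, and Klrk1, which encodes the activating receptor NKG2D, at 10.34 in lymph node IKDC and 9.20 and 9.26 in spleen IKDC. Klrk1 was within 1 log2 with the values as deposited, at 0.84. The T-box factor Eomes, which defines NK cells, read 11.87 in lymph node IKDC, between 11.57 and 12.34 in spleen IKDC.

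Of 22 cytotoxic effector genes, 5 were lower and 0 higher by the rule, beside 1.94% and 2.67% of all tested genes. The list's median organ difference was -0.27 (0.05 for CDC and -0.47 for NK). The median was -0.29 against spleen IKDC array 1 and -0.50 against array 2. Ifng, the gene for interferon gamma, read 9.26 in lymph node IKDC and 11.18 and 11.19 in spleen IKDC, 3.79-fold lower (-1.92 ± 0.50 SE, limma adjusted p = 0.409). In NK it read 11.08 in lymph node and 11.80 and 12.15 in spleen, so lymph node NK was lower as well, though by less than the rule asks. Gzmb, a granzyme, read 9.91 in lymph node IKDC and 11.66 and 11.22 in spleen IKDC. Gzma, the granzyme of resting NK cells, read 13.09 in lymph node IKDC and 13.16 and 13.19 in spleen IKDC. Prf1, which encodes perforin, read 10.16 in lymph node IKDC and 10.94 and 11.59 in spleen IKDC, outside both by less than 1 log2.

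The chemokines of activated NK cells had the largest distances of that list. Ccl4 read 8.69 in lymph node IKDC and 11.67 and 11.65 in spleen IKDC, 7.82-fold lower (-2.97 ± 0.30 SE, limma adjusted p = 0.0585). Ccl3 read 10.44 in lymph node IKDC and 12.68 and 12.74 in spleen IKDC, and was lower by the rule in all 3 cell types, while Ccl4 was lower in IKDC and NK. Of 25 chemokine and cytokine genes, 6 were lower and 0 higher, the others being Ifng, Cxcl2, Ccl9 and Cxcl10.

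Stage genes of NK cells lay on both sides of spleen. Of 17 genes of terminal maturation, 3 were lower and 0 higher, with a median of -0.50 in IKDC and -0.71 in NK. The median was -0.16 against spleen IKDC array 1 and -1.14 against array 2. Klrg1, the inhibitory receptor of late NK cells, read 8.90 in lymph node IKDC and 11.10 and 11.21 in spleen IKDC, 4.76-fold lower, and 10.92 in lymph node NK against 12.19 and 12.32 in spleen NK. S1pr5, the egress receptor of late NK cells, read 9.55 in lymph node IKDC, between 8.73 and 11.37 in spleen IKDC, and Itgam, which encodes CD11b, read 5.16 in lymph node IKDC and 5.51 and 7.61 in spleen IKDC.

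Of 23 genes of the early and tissue stages, 3 were higher and 3 lower. Il7r, the interleukin 7 receptor chain, read 12.11 in lymph node IKDC and 11.10 and 9.98 in spleen IKDC, and was higher by the rule in all 3 cell types. Cd27, the tumour necrosis factor family receptor of early NK cells, read 9.9995 in lymph node IKDC and 8.90 and 8.97 in spleen IKDC, and Ctla2a, a cathepsin inhibitor, read 12.27 and 10.96 and 11.13. The 3 higher genes were near the limit of the rule, and with arrays shifted to the same 75th percentile 0 of the list were higher. The lower members were Cd69, an early activation antigen, Tnfrsf9, which encodes 4-1BB, and Rora, a nuclear receptor. Rora read 6.49 in lymph node IKDC and 7.98 and 7.67 in spleen IKDC, against 9.40 in lymph node NK and 7.81 and 8.62 in spleen NK.

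**Figure D3:**
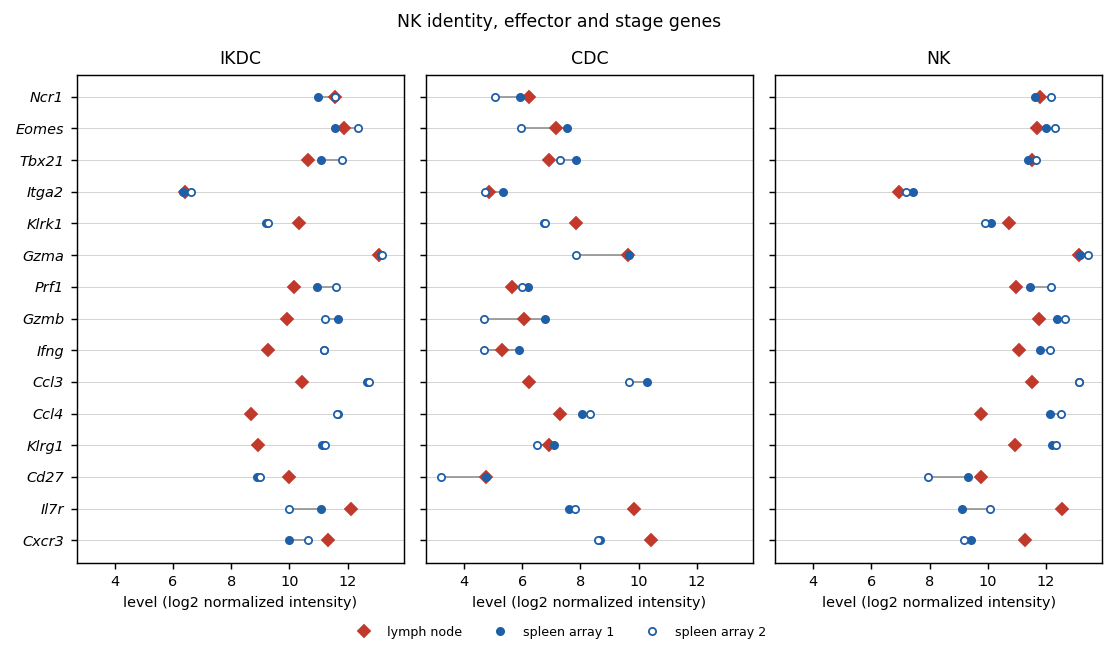
Levels (log2 normalized intensity) of NK identity, effector and stage genes in IKDC, CDC and NK, with lymph node as red diamonds and the spleen arrays as blue circles joined by a line. In IKDC, Ncr1, Eomes, Itga2 and Gzma lie at or near the spleen values, Ifng, Ccl3, Ccl4 and Klrg1 lie left of both circles, and Cd27 and Il7r lie right of both.

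Immediate early genes, which cells switch on within minutes of a stimulus and also during tissue dissociation, were mostly lower in lymph node than in spleen in all 3 cell types. Of 37 tested members, 18 were lower by the rule in lymph node IKDC and 0 higher, beside 1.94% and 2.67% of all tested genes. In IKDC 33 lay below both spleen arrays, beside 30.1% of all tested genes. In CDC 24 were lower and 2 higher, beside 4.92% and 4.2%. In NK 17 were lower and 0 higher, beside 2.18% and 2.13%. The list's median organ difference came to -1.34 for IKDC, -1.69 for CDC and -1.16 for NK. In IKDC the median was -1.15 against spleen array 1 and -1.66 against array 2.

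Nr4a1, an orphan nuclear receptor induced by antigen and stress signals, read 8.39 in lymph node IKDC and 11.59 and 11.62 in spleen IKDC, 9.29-fold lower (-3.22 ± 0.28 SE, limma adjusted p = 0.0585). In CDC it read 7.94 in lymph node and 12.06 and 12.47 in spleen, and in NK 8.81 in lymph node and 12.21 and 12.10 in spleen. All 3 lymph node arrays thus lay below all 6 spleen arrays. Atf3, a stress-induced transcription factor, read 4.61 in lymph node IKDC and 8.80 and 8.07 in spleen IKDC, at least 8.76-fold lower. Maff, a small Maf factor, read 4.63 in lymph node IKDC and 9.27 and 8.56 in spleen IKDC, at least 12.2-fold lower, and had the largest distance of the lower genes shared by all 3 cell types. The zinc finger factor Egr1 read 9.09 in lymph node IKDC and 11.38 and 11.69 in spleen IKDC.

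Members of the list differed from one another. Fos, a subunit of AP-1, read 12.45 in lymph node IKDC and 12.45 and 12.66 in spleen IKDC, while its relative Fosb read 8.29 in lymph node IKDC and 10.50 and 11.88 in spleen IKDC. Jun, its AP-1 partner, read 10.32 in lymph node IKDC and 10.86 and 11.96 in spleen IKDC, outside both by 0.54. Gadd45b, a stress gene, read 8.01 in lymph node IKDC and 10.87 and 9.75 in spleen IKDC, but in CDC it was higher in lymph node, at 10.39 against 7.63 and 8.68 in spleen. Of 23 NF-kB and tumour necrosis factor target genes, 8 were lower in lymph node IKDC and 0 higher, beside 1.94% and 2.67% of all tested genes. Among the 8 was Tnfaip3, which encodes the inhibitor A20, at 10.79 in lymph node IKDC and 12.61 and 12.80 in spleen IKDC. Ccl3, Ccl4, Cxcl2, Ier3 and Tnfrsf9 belong to that list too.

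**Figure D4:**
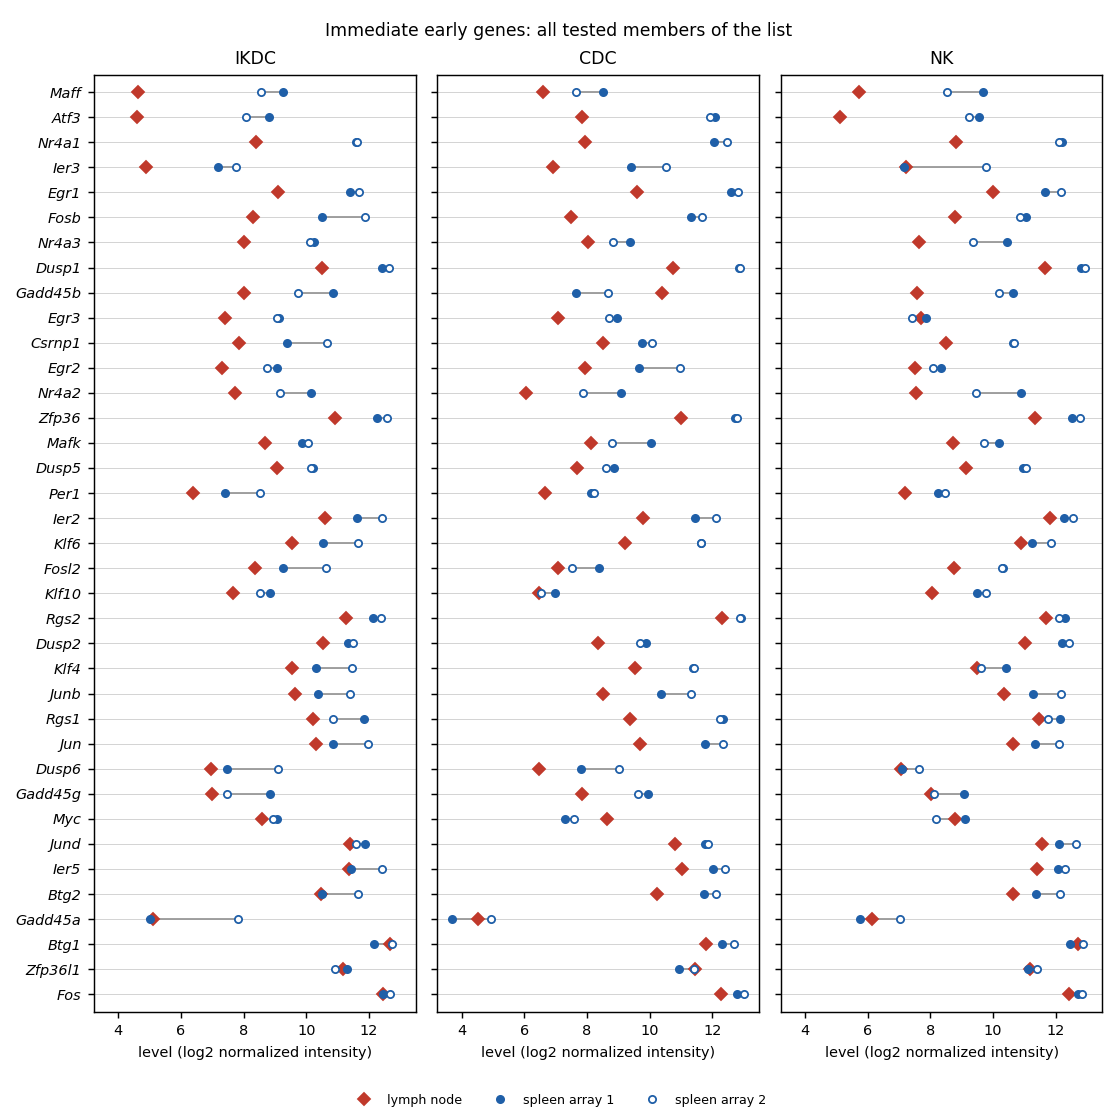
Levels (log2 normalized intensity) of the 37 tested immediate early genes in IKDC, CDC and NK, ordered by the IKDC distance, with lymph node as red diamonds and the spleen arrays as blue circles joined by a line. The diamond lies left of both circles by at least 1 log2 for 18 genes in IKDC, 24 in CDC and 17 in NK, and Fos lies at the spleen level.

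The promoters of Nr4a1, Atf3, Maff and Fosb are shown because these genes had some of the largest distances among those lower in all 3 cell types, and many immediate early genes are known to answer to the factor CREB through its site TGACGTCA. The capitals mark each match to its core TGACG on either strand, CGTCA being the core read from the other strand, in the 250 bases before the start site, from RefSeq on GRCm38.p6. Nr4a1 lies at chr15:101266596-101266845 on the plus strand, Atf3 at chr1:191183334-191183583 on the minus strand, Maff at chr15:79347270-79347519 on the plus strand for start site 2 of 3, and Fosb at chr7:19310046-19310295 on the minus strand.
Nr4a1: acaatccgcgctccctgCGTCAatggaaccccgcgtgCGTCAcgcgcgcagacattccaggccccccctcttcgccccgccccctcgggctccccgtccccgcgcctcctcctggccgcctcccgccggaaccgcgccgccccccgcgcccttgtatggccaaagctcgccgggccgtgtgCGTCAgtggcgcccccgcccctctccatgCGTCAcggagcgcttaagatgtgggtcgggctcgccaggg
Atf3: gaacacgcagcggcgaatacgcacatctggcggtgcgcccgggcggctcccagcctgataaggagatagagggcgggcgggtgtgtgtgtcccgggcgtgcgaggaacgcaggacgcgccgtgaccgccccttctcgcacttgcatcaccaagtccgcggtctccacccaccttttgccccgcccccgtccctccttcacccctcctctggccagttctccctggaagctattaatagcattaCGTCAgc
Maff: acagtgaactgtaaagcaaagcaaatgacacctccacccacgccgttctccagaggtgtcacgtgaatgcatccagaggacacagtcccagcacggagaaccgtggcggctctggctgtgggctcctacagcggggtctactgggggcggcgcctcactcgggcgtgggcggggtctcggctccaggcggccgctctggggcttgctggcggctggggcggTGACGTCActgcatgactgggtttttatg
Fosb: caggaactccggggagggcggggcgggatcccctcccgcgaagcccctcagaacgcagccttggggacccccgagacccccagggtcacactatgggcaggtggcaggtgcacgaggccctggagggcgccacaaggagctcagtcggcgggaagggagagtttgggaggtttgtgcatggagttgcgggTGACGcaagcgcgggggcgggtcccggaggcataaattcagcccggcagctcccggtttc
The core occurs 4 times in Nr4a1, and the Maff window of start site 2 holds the whole site, in which both strands match and overlap. The windows of the other Maff start sites lack the whole site, with 0 matches to the core at site 1 and 1 at site 3. For shares by gene, only the first start site listed for a gene was counted, so Maff counted as lacking both the core and the whole site. Of the 31 genes lower in all 3 cell types, 24 had a promoter entry, and 14 of these held TGACG there (58.3%). The share was 27.9% of the 8913 tested genes with an entry, counted alike, and 17.8% of all entries, where each start site counts. The whole site was in 3 of the 24 (12.5%) and in 2.8% of the tested genes. Among all genes lower by the rule with an entry, 46 of 172 held TGACG (26.7%), near the share of the tested genes. Among the higher genes that did not shift alike, 8 of 46 held TGACG (17.4%). These shares describe letters and were given no test.

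Proliferation genes were lower in lymph node IKDC, by an amount that depended on the spleen array. Of 46 tested members, 13 were lower by the rule and 0 higher, beside 1.94% and 2.67% of all tested genes. In IKDC 42 lay below both spleen arrays, beside 30.1%. Of the 13, 4 did not shift alike. The list's median organ difference came to -1.64 for IKDC, -0.30 for CDC and -0.73 for NK. Against spleen IKDC array 1 the median was -2.36 and against array 2 it was -0.71. The median level of the list was 6.85 in lymph node IKDC and 9.56 and 7.32 in spleen IKDC, and spleen array 1, which stood apart in sex-linked genes, was also the higher one in CDC and NK.

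Bub1, a kinase of the spindle checkpoint, read 4.48 in lymph node IKDC and 8.75 and 6.51 in spleen IKDC, at least 4.99-fold lower. Plk1, a kinase of mitotic entry, read 4.68 in lymph node IKDC and 7.86 and 6.61 in spleen IKDC. Rrm2, a ribonucleotide reductase subunit, read 8.15 in lymph node IKDC and 11.49 and 9.37 in spleen IKDC, and its 3 probe sets all passed the rule. The spleen arrays of each of these genes differed from each other by more than 1 log2. Mki67, the Ki-67 antigen, read 8.63 in lymph node IKDC and 11.91 and 9.07 in spleen IKDC, a difference of -1.86 ± 1.40 (SE), and did not reach the rule. Mcm2, a subunit of the replication helicase, read 9.28 in lymph node IKDC and 10.60 and 9.39 in spleen IKDC. Among the 29 lower genes that did not shift alike, the 15 with the largest distances included the division and replication genes Rad51ap1, Kif20a, Cdc6, Melk, Kntc1, Spdl1, Ccne2 and Rrm2. In CDC and NK the lymph node level of each lay below spleen array 1 and above array 2. For Melk in NK it was 5.63 against 7.48 and 5.38. Their place in this class thus rests on the split of the spleen pairs. Of the 46 list members, 24 lay below both spleen arrays in NK and 16 in CDC, beside 4351 and 4375 of all 10916 tested genes.

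**Figure D5:**
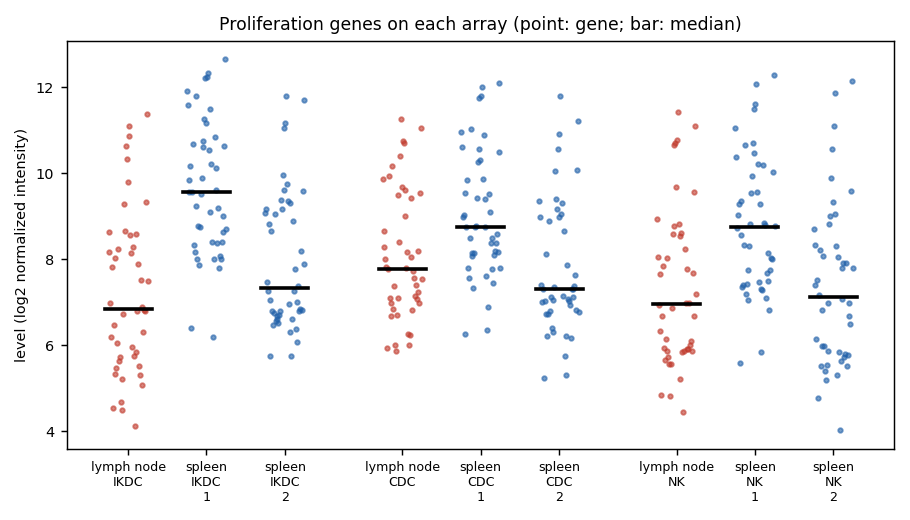
Levels (log2 normalized intensity) of the 46 tested proliferation genes on each of the 9 arrays, 1 point per gene and a bar at the median, with lymph node in red and spleen in blue. The median is 6.85 in lymph node IKDC, and spleen array 1 stands above spleen array 2 in all 3 cell types.

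Receptors for growth factors and cytokines included 5 of 30 tested genes higher in lymph node IKDC and 0 lower, beside 2.67% and 1.94% of all tested genes. Csf2rb2 and Csf2rb, the beta chains of the granulocyte-macrophage factor and interleukin 3 receptors, read 10.19 and 9.49 in lymph node IKDC. In spleen IKDC they read 5.73 and 7.18 for Csf2rb2 and 7.09 and 8.00 for Csf2rb, and the pair of genes is similar in sequence, so that probe sets may not separate them. Ifnar2, a chain of the type I interferon receptor, read 10.96 in lymph node IKDC and 9.02 and 9.22 in spleen IKDC, against 9.63 or below in CDC and NK. Flt3 and Il7r were the other members.

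Of 44 type I interferon response genes, 4 were higher (9.09%) and 1 lower (2.27%), beside 2.67% and 1.94% of all tested genes. The list's median organ difference was 0.28. The higher members were Bst2, Ly6e, Mx1 and Irgm1. Mx1, an antiviral GTPase, read 7.89 in lymph node IKDC and 6.56 and 6.58 in spleen IKDC, and was higher in lymph node CDC too. Cxcl10, a chemokine induced by interferon, was the lower member, at 6.29 in lymph node IKDC and 7.84 and 8.50 in spleen IKDC.

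Homing and egress genes showed 3 of 24 higher and 1 lower, beside 2.67% and 1.94% of all tested genes. The higher ones were Ccr9, P2ry14, a receptor for nucleotide sugars, and Ccr6, the receptor for the chemokine CCL20. Ccr6 read 7.94 in lymph node IKDC and 6.20 and 5.84 in spleen IKDC, and 10.09 in lymph node NK against 5.98 and 6.44 in spleen NK. Cxcr3, a receptor for interferon-induced chemokines, read 11.31 in lymph node IKDC and 9.9957 and 10.63 in spleen IKDC, outside both by 0.68. S1pr1 read 6.60 in lymph node IKDC, between 6.43 and 6.96 in spleen IKDC.

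Of the 21 genes that were higher in all 3 cell types, Itgae, the CD103 integrin chain that binds E-cadherin, read 9.05 in lymph node IKDC and 6.35 and 6.63 in spleen IKDC, 5.89-fold higher. Its levels were 11.04 in lymph node CDC against 8.65 and 9.06 in spleen CDC, and 10.82 in lymph node NK against 6.70 and 6.86 in spleen NK. Parp3, an enzyme of DNA repair, read 8.82 in lymph node IKDC and 6.73 and 7.01 in spleen IKDC, but 1 of its 3 probe sets at the filter level passed the rule, and the others had distances of 0.45 and 0.02. Il22ra2, a soluble receptor that binds interleukin 22, read 7.80 in lymph node IKDC and 5.01 and 4.16 in spleen IKDC, at least 5.62-fold higher. It passed the filter only with its lymph node IKDC level, as its mean over the other arrays was under 5.31.

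Several general groups showed no member past the rule. Glycolysis genes had 0 of 19 higher and 0 lower, ribosomal protein genes 0 of 34, oxidative phosphorylation genes 0 of 39 and class I presentation genes 0 of 14. Cholesterol synthesis genes had 1 of 19 lower, Cyp51, a sterol demethylase. Heat shock and chaperone genes had 1 of 26 higher, Xbp1, and 1 lower, Dnajb4. Costimulation and checkpoint genes had 2 of 19 higher, Btla and Cd200, and 2 lower, Ctla4 and Tnfrsf9. Of 35 lymphocyte transcription factor genes, 2 were lower, Rora and Runx1, and 0 higher. Runx1 read 5.88 in lymph node IKDC and 7.62 and 7.70 in spleen IKDC, and 1 of its 4 probe sets at the filter level passed the rule. Probe sets also disagreed on the rule for Rora (1 of 6 passed), Ifnar2 (1 of 3), Srpk3, Serpinb9, Csf2rb, Fscn1 and Cyp51 (1 of 2 each), Cybb and Dnajb4 (2 of 3 each) and Xbp1 (3 of 4).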

How the data were processed

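The deposited values are signal intensity per probe set of Affymetrix mouse arrays. Their mean between the 2nd and 98th percentiles was near 150.0 on each array, and no step that made it so is stated. No source used here names the software. Per the labels' protocols, total RNA was extracted with TRIzol and purified on columns. The table held 45101 probe sets and 0 missing values. Gene tests left out 64 control probe sets, 932 that carry several symbols and 9160 that carry no symbol. An offset of 6.49, the 20th percentile of all values, was added, log2 was taken and arrays were quantile normalized. For each gene the probe set of highest mean was kept, and genes at or above the 40th percentile were tested.

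A model of 6 groups (organ by cell type) was fitted with limma 3.58.1, with a trend, in R 4.3.3. It had 3 residual degrees of freedom, and the prior added 3.44. The lone array of a lymph node group was taken to vary as much as the spleen arrays do. Two-sided p-values received a Benjamini-Hochberg adjustment over all 10916 genes. As nothing in the labels ties an array to its animals, p-values reflect the spread among these arrays alone, which may be technical. The number of arrays limits the precision. The scripts were tested on simulated data. Figures and motif searches used Python 3.11.15, pandas 2.3.3 and matplotlib 3.10.9, and gene names came from the platform annotation.

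The comparison, the naming rule and the 32 gene lists were chosen with earlier results of these data known. The rule took, in each direction, the 15 largest distances among genes not alike and the 8 largest among genes alike, up to 4 members past 1 log2 of each list, and 49 fixed genes, of which 42 were tested. It named 132 genes, and list members given beside these as counterexamples were chosen after their values were seen. The alternatives tried were no quantile step, arrays shifted to a common 75th percentile, offsets of 1 and 32, no filter, a filter at the 60th percentile, the mean of all probe sets, each spleen array left out in turn, other variance models, IKDC arrays alone and a replicate block.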

Additional observations from a re-analysis of the deposited data

Results flagged for a closer look

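Of all tested genes, 29 lay outside both spleen IKDC arrays in one direction and outside both spleen arrays of CDC (21 genes) or NK (9 genes) in the other, by at least 1 log2 each. The 11 of these that the text names are given here. Distances are lymph node from the nearer spleen array. Limma tested the difference between the organ differences of each pair and called none, with adjusted p-values as given. Of those higher in lymph node IKDC, 6 lay lower in lymph node CDC. Lair1 lay at 2.08 for IKDC but -3.22 for CDC and -1.04 for NK (limma adjusted p = 0.174 against CDC and 0.479 against NK), and Tlr7 at 2.43 for IKDC but -2.81 for CDC (0.299). Plac8 lay at 2.89 for IKDC but -1.10 for CDC (adjusted p = 0.174), Spns3 at 2.61 and -1.02 (0.244), Srpk3 at 2.94 and -1.32 (0.319), and Gm5547 at 2.88 and -1.38 (0.299).

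Ccl9, a chemokine of myeloid cells, lay at -1.69 for IKDC but 2.03 for CDC (limma adjusted p = 0.838). Serpinb9, the inhibitor of granzyme B, lay at -1.18 for IKDC but 1.07 for CDC (limma adjusted p = 0.383). Gadd45b lay at -1.74 for IKDC but 1.70 for CDC (limma adjusted p = 0.402). Against NK, Cd68, a lysosomal glycoprotein, was at 1.89 in IKDC and -1.26 in NK, and Ctla4, an inhibitory receptor of T cells, at -1.74 in IKDC and 2.63 in NK (limma adjusted p = 0.479 for both). Groups of 1 and 2 arrays are too small for a check on single outlying samples.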

How the results depend on the processing

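The main limit is the spleen IKDC pair. With each spleen array left out in turn, the count of higher genes ran from 291 to 1053 and of lower genes from 212 to 910. Genes not alike then ran from 44 to 321 higher and from 10 to 156 lower, genes alike from 23 to 33 higher and from 33 to 42 lower, and genes called by limma from 0 to 14. Without spleen IKDC array 1 there were 1053 higher and 910 lower genes, and without array 2 there were 676 and 691, since the rule then asks the lymph node array to lie outside 1 array and not a pair. All 291 and 212 genes stayed in each set. The lowest count of lower genes not alike, 10, was without spleen CDC array 2, and without spleen NK array 2 it was 13. With the values as deposited, genes lower and not alike numbered 17. An offset of 32 left 112 lower genes, 7 of them not alike, and 12 higher genes alike. Without a filter there were 443 higher and 391 lower genes, 95 and 65 of them not alike. A filter at the 60th percentile left 160 and 120, with 34 and 10 not alike and 11 higher genes alike, and the mean of all probe sets also gave 11 of the last kind. Limma called 46 genes with the offset of 32, 22 with the 60th percentile filter and 18 with the mean of probe sets, beside 0, and the cause was not tested. The tests against NK and CDC called 0 genes under every alternative run. Of 1274 values of 98 named genes past the rule under the alternatives, 1273 kept their sign, and 68 of the genes stayed at 1 log2 or more throughout. Many of these values could not have moved. The filter settings and the runs without a CDC or NK array leave the IKDC distance as it is. Leaving out a spleen IKDC array can only keep or enlarge it. Only the scalings, the offsets and the mean of all probe sets could lower a distance, so the 1273 overstates how stable the values were.

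The labels do not say whether a number pairs the spleen arrays. In the data, arrays 1 of all 3 cell types had low Xist and high Eif2s3y and arrays 2 the reverse, and deviations of arrays with the same number correlated across genes at 0.412 between CDC and NK, at 0.529 between IKDC and CDC, and at 0.485 between IKDC and NK. With the number as a replicate block, limma called 126 genes with the lymph node arrays at the midpoint and 64 with them counted with spleen arrays 2, of which 59 were called both ways. The block changed no call in the tests against NK and CDC, which stayed at 0. The median difference of all tested genes was 0.01 with quantile normalization, 0.07 as deposited and -0.04 with arrays shifted to the same 75th percentile. Of the list medians, 7 changed sign between these scalings, namely T cell (-0.02, 0.23 and 0.12), lymph node stroma, macrophage, homing, costimulation, ribosomal protein and oxidative phosphorylation genes. The pDC median was 2.95, 2.94 and 2.83 with 13 higher genes each time.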

Other observations

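Among the genes that did not pass the filter, some stood far above background in lymph node IKDC, and they were chosen after their values were seen. Gzmc, a granzyme best known from strongly activated killer cells, read 10.36 in lymph node IKDC and 4.75 and 4.85 in spleen IKDC, at least 33.2-fold higher. It was at 6.00 in lymph node NK, 4.43 and 4.82 in spleen NK and 5.17 or below in CDC. Its relatives Gzmd, Gzme and Gzmf were at 3.67 or below in all 3 IKDC arrays. Cd8b1, a chain of the CD8 coreceptor, read 8.79 in lymph node IKDC and 3.33 and 4.24 in spleen IKDC, at least 11.1-fold higher, while Cd8a read 6.93 in lymph node IKDC and 6.55 and 6.19 in spleen IKDC. Iglv1, a lambda light chain segment, read 7.82 in lymph node IKDC and 3.36 and 3.39 in spleen IKDC. Glycam1, an adhesion ligand of high endothelial venules in lymph nodes, read 8.08 in lymph node IKDC and 2.93 and 3.07 in spleen IKDC, and 11.30 in lymph node NK against 3.29 and 2.97 in spleen NK. Other stroma genes such as Madcam1, at 4.81 in lymph node IKDC and 5.19 and 4.38 in spleen IKDC, were under the filter level.

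D13Ertd608e, an unnamed transcript chosen after its values were seen, read 12.19 in lymph node IKDC and 5.46 and 7.17 in spleen IKDC. It stood 5.01 above the highest of the other 8 arrays.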
